A study of Mus musculus with 2 samples.

Results

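Imprinted genes are read from only 1 of the parental copies, because DNA methylation set in egg or sperm marks these copies differently. Most imprinted genes act on growth before and shortly after birth. Several are active in embryonic and regenerating muscle: Dlk1, a membrane protein related to Notch ligands, and Peg3, a zinc-finger factor of muscle stem cells, are best known there. Pax7 marks muscle progenitors, Myog (myogenin) cells that have committed to differentiate, and sarcomere genes differentiated muscle. The 10 imprinted genes described here (Nnat, Ndn, Dlk1, Plagl1, Peg3, Mest, Grb10, Igf2r, Sgce and Phlda2) were chosen by symbol, and all 10 were found among the 25906 genes of the files, each with a single identifier. The counts do not say from which parental copy a transcript came.

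Single-cell RNA was measured in induced myogenic progenitor cells, a proliferating culture made from mouse embryonic fibroblasts that holds muscle progenitors and their differentiated progeny. The MyoD-KO and the MyoD-WT library each came from 1 clone, both with the strain label Myod1tm1Jae. Both were made by overexpressing the muscle factor Myf6 under forskolin, RepSox and CHIR99021, both were picked once they no longer depended on Myf6, and both were kept in these compounds with bFGF until passage 4. With 1 clone and 1 library per genotype there are no replicates, so no test was made. Every interval below covers counting error only, and genotype, clone and library cannot be told apart.

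After filtering, 5638 MyoD-KO cells with 240970199 UMIs (unique molecules, median 40426 per cell) and 7316 MyoD-WT cells with 279006808 UMIs (median 35516) were compared. Each cell was put in the first class it met: muscle-rich (12 sarcomere genes with at least 2% of its UMIs), Crabp1/Dcn-positive (at least 5 UMIs of these fibroblast-linked genes), Myog+ (at least 5 UMIs) or Pax7+ (at least 2 UMIs). This gave 1061 muscle-rich, 162 Crabp1/Dcn-positive, 1014 Myog+ and 2964 Pax7+ cells in MyoD-KO, against 1077, 5, 1300 and 4201 in MyoD-WT, with 437 and 733 cells in none. Muscle genes not used for the gates followed them. Ckm, Myom2, Actn3, Atp2a1 and Casq1 summed to 2893 CPM (UMIs per 1000000) in muscle-rich cells against 101 CPM in Pax7+ cells of MyoD-KO. In MyoD-WT they summed to 1218 against 107 CPM. Progenitor genes (Myf5, Itga7, Cdh15, Sdc4, Fgfr4 and Chodl) separated the classes less. In Pax7+, Myog+ and muscle-rich cells they summed to 682, 486 and 391 CPM in MyoD-KO and to 341, 327 and 299 CPM in MyoD-WT. The Crabp1/Dcn-positive cells of MyoD-KO held Col3a1 (1457 CPM), Col6a3 (1391 CPM) and Twist2 (419 CPM), but Col1a1, a defining fibroblast collagen, was at only 6.72 CPM, so they are called by their gate. Col3a1 and Col6a3 were also found in MyoD-KO Pax7+ cells, at 512 and 272 CPM. Summed markers of blood, endothelial, epithelial, neural and pluripotent cells stayed between 0 and 9.12 CPM in the 4 classes where these held at least 50 cells. Smooth muscle markers, nearly all Acta2, which early muscle cells also express, summed to 306 CPM in MyoD-KO and 816 CPM in MyoD-WT. Myod1 itself was at 63.3 CPM in MyoD-KO and 162 CPM in MyoD-WT, and the deleted stretch is not stated, so 3' tags do not check the label.

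Nnat and Ndn carried the largest differences among the members, in opposite directions. The stretches before their start sites are shown because these are the promoters of the pair, together with that of Peg3, whose summed level in Pax7+ cells was nearly equal in the libraries. The sequences are the 250 bases upstream of the start in RefSeq, build GRCm38.p6, given 5′ to 3′ on the gene's strand, with CG dinucleotides, the letters that DNA methylation marks in mammals, in capitals. They lie at chr2:157559828-157560077 (plus strand) for Nnat, at chr7:62348027-62348276 (plus strand) for Ndn and at chr7:6730420-6730669 (minus strand) for Peg3.
Nnat: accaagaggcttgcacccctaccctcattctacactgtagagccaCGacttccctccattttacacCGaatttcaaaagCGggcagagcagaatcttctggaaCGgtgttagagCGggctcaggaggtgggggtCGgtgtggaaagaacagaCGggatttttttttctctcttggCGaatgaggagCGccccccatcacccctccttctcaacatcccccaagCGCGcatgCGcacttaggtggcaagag
Ndn: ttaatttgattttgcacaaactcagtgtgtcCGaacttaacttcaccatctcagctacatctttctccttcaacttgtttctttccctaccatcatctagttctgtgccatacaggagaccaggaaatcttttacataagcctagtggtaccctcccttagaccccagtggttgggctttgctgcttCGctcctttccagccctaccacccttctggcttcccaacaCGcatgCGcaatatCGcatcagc
Peg3: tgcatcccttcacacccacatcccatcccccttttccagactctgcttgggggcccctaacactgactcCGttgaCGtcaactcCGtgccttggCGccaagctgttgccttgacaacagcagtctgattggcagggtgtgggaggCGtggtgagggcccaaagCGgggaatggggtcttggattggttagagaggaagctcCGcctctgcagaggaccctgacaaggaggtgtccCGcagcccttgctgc
These stretches hold 12, 5 and 8 CG, and as many or more are found in 33.5%, 55.6% and 43.0% of the 32851 promoter stretches of this length, whose median is 6. None of the 3 contains CANNTG, the E-box letters that basic helix-loop-helix factors such as MyoD can bind, a motif that reads the same way on both strands and is present in 66.2% of the stretches. A stretch was found for 9 of the 10 members. Methylation was not measured, and the letters describe these windows only.

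Nnat, which encodes neuronatin, a small membrane protein of the endoplasmic reticulum, was lower in MyoD-KO in every class that could be compared. Its level was 31.5 CPM in Pax7+, 24.8 CPM in Myog+ and 1.66 CPM in muscle-rich cells of MyoD-KO, against 506, 500.4 and 88.1 CPM in MyoD-WT. The ratios of MyoD-KO over MyoD-WT were 0.0622 (95% interval 0.0602 to 0.0642), 0.0495 (0.0467 to 0.0525) and 0.0188 (0.0149 to 0.0235), and over all kept cells 22.7 against 440.4 CPM, a 19.4-fold lower level. With higher gate minimums the muscle-rich log2 ratio was -4.73 rather than -5.73. In both libraries muscle-rich cells had less Nnat than Pax7+ cells, while Pax7+ and Myog+ cells overlapped within counting error in MyoD-WT only. The MyoD-KO Crabp1/Dcn-positive cells had 3.62 CPM, and the 5 such cells of MyoD-WT had 499 CPM from 141 UMIs.

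Ndn encodes necdin, a MAGE-family protein that in mice favours muscle differentiation and the survival of muscle progenitors. Its level was 40.0 CPM in Pax7+, 30.4 CPM in Myog+, 45.6 CPM in muscle-rich and 40.2 CPM in Crabp1/Dcn-positive cells of MyoD-KO, against 1.60, 1.62 and 4.20 CPM in the first 3 of these classes of MyoD-WT. It was thus higher in MyoD-KO in all 3 classes compared, by 24.9 (22.0 to 28.4), 18.7 (15.1 to 23.4) and 10.8 times (9.32 to 12.7). Over all kept cells it stood at 39.3 against 2.08 CPM, a ratio of 18.9 (17.4 to 20.6). Among the 10 members, Ndn was the one whose level in Crabp1/Dcn-positive cells was closest to that in Pax7+ cells of MyoD-KO, at 1.01 times.

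These were the only members called over all kept cells, that is, at least 2-fold apart and with no less than 10 CPM in the library with more: 1 higher and 1 lower in MyoD-KO, or 2 of 10. Among 8793 genes past that minimum, 16.7% were so far apart, 13.3% higher and 3.40% lower, so the share of members was near the background. The median log2 ratio was -0.08 for the 9 members past the minimum and 0.08 for all genes past it. Within classes, 3 members were past the limits in Pax7+ cells (background 18.1%), 3 in Myog+ cells (1 higher against a background of 11.1%, 2 lower against 3.96%) and 5 in muscle-rich cells (17.0%). The muscle-rich class differed most: its 9 members past the minimum had a median log2 ratio of -0.59, against 0.05 for all genes there.

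Within each library, the step from Pax7+ to muscle-rich cells came with lower levels of 4 members in MyoD-KO (Nnat, Plagl1, Mest and Sgce) and 3 in MyoD-WT (Nnat, Plagl1 and Mest), at the limits above. Of all genes, 33.5% were lower by as much in MyoD-KO and 30.1% in MyoD-WT, so these shares too were near the background.

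**Figure D1:**
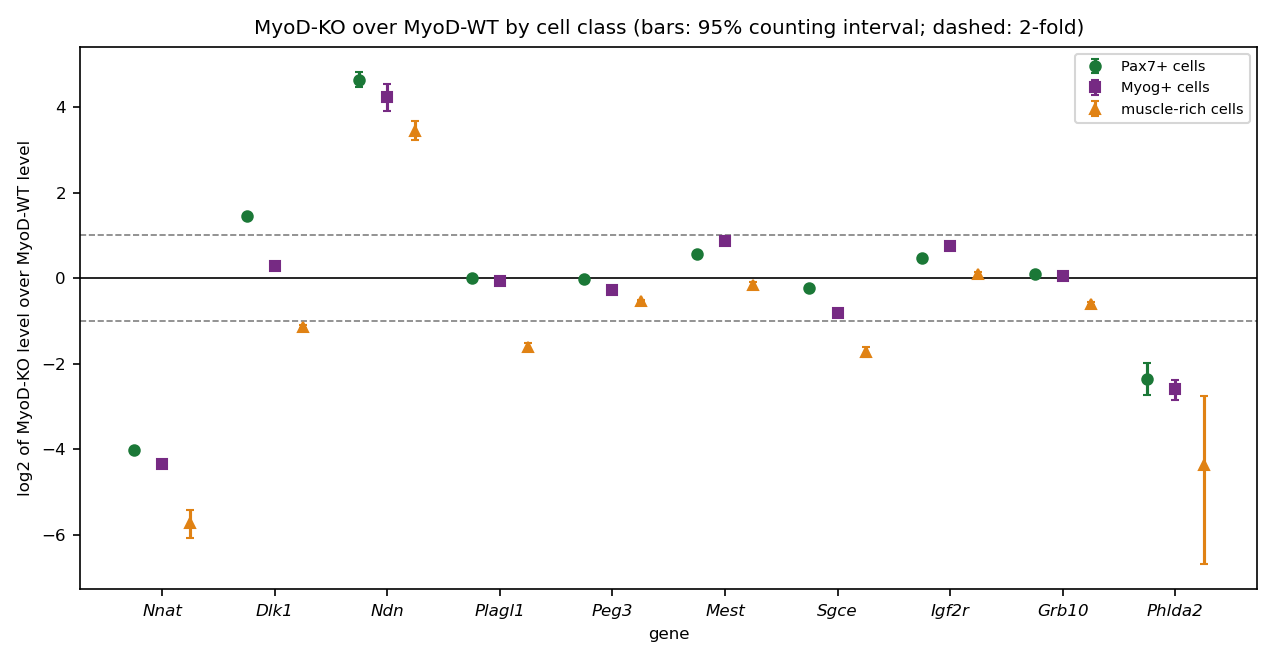
log2 ratio of MyoD-KO over MyoD-WT levels (vertical axis) for each of the 10 genes (horizontal axis) in Pax7+, Myog+ and muscle-rich cells; points are ratios of summed UMIs per 1000000, bars are 95% counting intervals and dashed lines mark 2-fold. Nnat lies at -4.01, -4.34 and -5.73 and Ndn at 4.64, 4.22 and 3.44, while Dlk1 goes from 1.47 in Pax7+ cells to -1.14 in muscle-rich cells.

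Whether Nnat was low in all MyoD-KO cells or in some was asked in cells thinned to 20000 UMIs each, with shallower cells left out (399 MyoD-KO and 385 MyoD-WT cells). At least 1 Nnat UMI was found in 18.5% of 2937 MyoD-KO Pax7+ cells (17.1 to 20%), against 94.9% of 4121 MyoD-WT Pax7+ cells (94.2 to 95.6%); without thinning the shares were 25.9% and 96.4%. If the few UMIs of MyoD-KO had been spread evenly, a UMI would be found in 45.5% of its cells by the Poisson formula. The UMIs were instead concentrated: 86.0% of them lay in the 10% of cells with most, and the variance over the mean was 8.08, against a median of 1.12 for 4576 genes of like level. Nnat was therefore not detected in most MyoD-KO progenitors at this depth and plainly detected in a minority. Of the 2937 cells, 2393 had none, 290 had 1, 139 had 2 to 4, 77 had 5 to 9, 31 had 10 to 19 and 7 had 20 or more.

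The MyoD-KO Pax7+ cells with 5 or more thinned Nnat UMIs, 115 in number, had 464 CPM of Nnat, and the 3065 MyoD-WT cells chosen in the same way had 624 CPM, levels that the choice of cells in part sets. Set beside those MyoD-WT cells, other genes, named after their values were seen, stood in some cases near the MyoD-KO level. Others stood between the libraries, and others further from MyoD-WT. Alx1, a homeobox gene, and the Y-linked Eif2s3y had 0 UMIs in the 115 cells, which allows at most 0.770 CPM at the upper 95% bound, against 124 and 64.9 CPM in the MyoD-WT cells. Eif2s3y also had 0 UMIs in the 2393 MyoD-KO cells with no Nnat. There the Y-linked Ddx3y, Kdm5d and Uty were at 1.48, 0.0297 and 0.0198 CPM, against 54.9, 20.3 and 48.6 CPM in the MyoD-WT cells. The libraries thus differed in Y-linked RNA, and the cause was not tested. The Pax7 level of the 115 cells was 192 CPM, against 212 CPM in the 2393 cells. Car3 stood at 494 CPM in the MyoD-KO cells with Nnat and 83.9 CPM in those without, against 657 CPM in the MyoD-WT cells. For Tnnt1 these levels were 140.1 and 21.6 CPM against 451 CPM, for Fbn2 93.1 and 14.6 CPM against 151 CPM, and for Tagln 176 and 35.4 CPM against 306 CPM. S100a4 went the other way, at 41.7 and 473 CPM against 0.617 CPM in MyoD-WT, and so did Lgals3, at 107 and 440.4 CPM against 1.05 CPM. In these 6 genes the MyoD-KO cells with Nnat thus lay between the MyoD-KO cells without it and the MyoD-WT cells also chosen by Nnat. The order depended on that choice. In the 209 MyoD-WT Pax7+ cells with 0 thinned Nnat UMIs, Car3 was at 220.0 CPM and Fbn2 at 80.0 CPM. Both are below the MyoD-KO cells with Nnat. Tnnt1 (187 CPM), Tagln (231 CPM), S100a4 (23.2 CPM) and Lgals3 (17.1 CPM) kept the order against these cells. Fbn2, Car3, Tnnt1 and Tagln were the genes most correlated with Nnat over the MyoD-KO Pax7+ cells (Pearson r of 0.36, 0.35, 0.33 and 0.32). Their higher level in the MyoD-KO cells with Nnat restates this correlation and is no separate result. Car3 and Tnnt1 were also the genes with the highest correlation with Nnat over the 4121 MyoD-WT Pax7+ cells (Pearson r of 0.50 and 0.43 on log values, cells of 1 library sharing their depth). Ndn did not share the pattern, at 34.2 CPM in the MyoD-KO cells with Nnat and 40.7 CPM in those without. Asb4 and Dlk1 lay further from MyoD-WT in the MyoD-KO cells with Nnat. Asb4 was at 55.9 CPM with Nnat and 9.18 CPM without, against 1.89 CPM in the MyoD-WT cells. For Dlk1 these levels were 418 and 289 CPM against 94.0 CPM.

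Myog+ cells of MyoD-KO showed the same mixture of Nnat. A UMI was found in 14.1% of 990 of them (12.0 to 16.5%), against 38.3% at an even level, and 91.4% of the UMIs lay in the 10% of cells with most. In MyoD-WT Myog+ cells 93.7% had a UMI. In muscle-rich cells Nnat was low throughout in MyoD-KO, with a UMI in 2.10% of 808 cells (1.23 to 3.35%) against 2.20% at an even level and 4.62% without thinning, a share so low that free RNA in the droplets cannot be told from expression. In MyoD-WT it was unevenly spread, with a UMI in 48.2% of 952 muscle-rich cells against 76.6% at an even level.

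**Figure D2:**
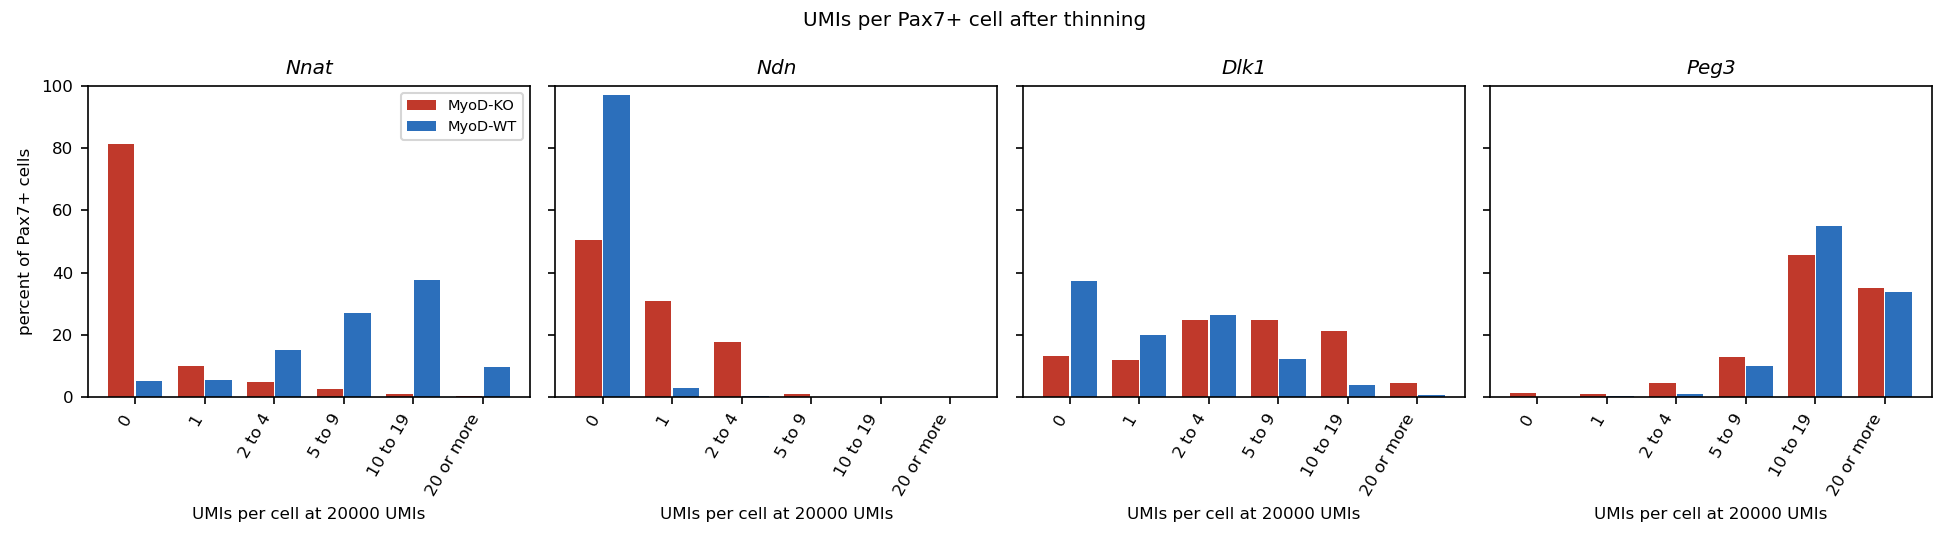
Percent of Pax7+ cells (vertical axis) by the number of UMIs per cell after thinning to 20000 UMIs (horizontal axis) for Nnat, Ndn, Dlk1 and Peg3 in MyoD-KO and MyoD-WT. Nnat is at 0 in most MyoD-KO cells with a thin tail up to 20 or more, Ndn is at 0 in nearly all MyoD-WT cells, and Dlk1 spreads over all bins in both libraries.

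Ndn was spread almost evenly over the Pax7+ cells of both libraries. In MyoD-WT Pax7+ cells 3.01% had a UMI (2.51 to 3.58%), against 3.13% at an even level, and the variance over the mean was 1.08, with a median of 1.04 for genes of like level. Such a share may be background. MyoD-WT Pax7+ cells with no UMI of the proliferation genes Mki67 and Top2a had 3.86 CPM of Ndn (2.36 to 5.96, from 20 UMIs), against 1.49 CPM (1.29 to 1.71) in those with 5 or more. In MyoD-KO Pax7+ cells 49.5% of cells had a UMI (47.7 to 51.3%), against 54.2% at an even level, so most of the zeros were those that its low level gives. Without thinning the shares were 70.6% in MyoD-KO and 5.59% in MyoD-WT Pax7+ cells. In Myog+ cells the shares were 39.3% in MyoD-KO and 3.08% in MyoD-WT, and in muscle-rich cells 48.3% and 7.46%. Muscle-rich cells were less even, with 59.6% in MyoD-KO and 9.12% in MyoD-WT at an even level, and a variance over the mean of 2.01 and 1.48 against 1.22 and 1.07 for genes of like level.

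Dlk1 changed with differentiation in MyoD-WT and not in the same way in MyoD-KO. Its level was 309.5 CPM in Pax7+, 221 CPM in Myog+ and 261 CPM in muscle-rich cells of MyoD-KO, against 112, 181 and 573 CPM in MyoD-WT. It was thus 2.76 times higher in MyoD-KO in Pax7+ cells (2.72 to 2.81) and lower in muscle-rich cells, at 0.455 (0.445 to 0.465). In Myog+ cells the ratio was 1.22, and its direction depended on the gates: the log2 ratio of 0.29 became -0.74 with higher gate minimums. Within MyoD-WT, muscle-rich cells had 5.12 times the level of Pax7+ cells, among 12.8% of genes that were at least 2-fold higher there. In MyoD-KO no class but the Crabp1/Dcn-positive one (14.2 CPM) was 2-fold away from Pax7+ cells.

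Muscle-rich cells of MyoD-KO held more sarcomere RNA than those of MyoD-WT, with a median of 7.32% against 4.45% of UMIs, so levels were also set side by side at equal sarcomere share, in steps chosen after the data were seen and without the Crabp1/Dcn-positive cells. In cells with 2 to 5% sarcomere UMIs Dlk1 was at 182 CPM in MyoD-KO (191 cells) and 554 CPM in MyoD-WT (650 cells), and in cells with 5 to 10% at 281 CPM (688 cells) and 619 CPM (416 cells). The lower level in MyoD-KO muscle cells was thus present at equal share too. Below 0.5% the order was the opposite, at 280.4 CPM in MyoD-KO and 114 CPM in MyoD-WT.

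Dlk1 was unevenly spread over the cells of both libraries. In Pax7+ cells 86.7% of MyoD-KO (85.4 to 87.9%) and 62.7% of MyoD-WT cells (61.2 to 64.2%) had a UMI, against 99.8% and 89.8% at an even level, and without thinning 92.0% and 74.1% had one. The variance over the mean was 6.29 and 4.89, against 1.46 and 1.15 for genes of like level. Muscle-rich cells turned this order round: a UMI was found in 65.6% of MyoD-KO cells (62.2 to 68.9%), although an even level would give 99.6%, and in 96.1% of MyoD-WT cells (94.7 to 97.2%), and without thinning in 63.7% and 93.4%. The MyoD-KO muscle-rich cells thus held many without detected Dlk1, while the 10% of cells with most held 45.6% of its UMIs.

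**Figure D3:**
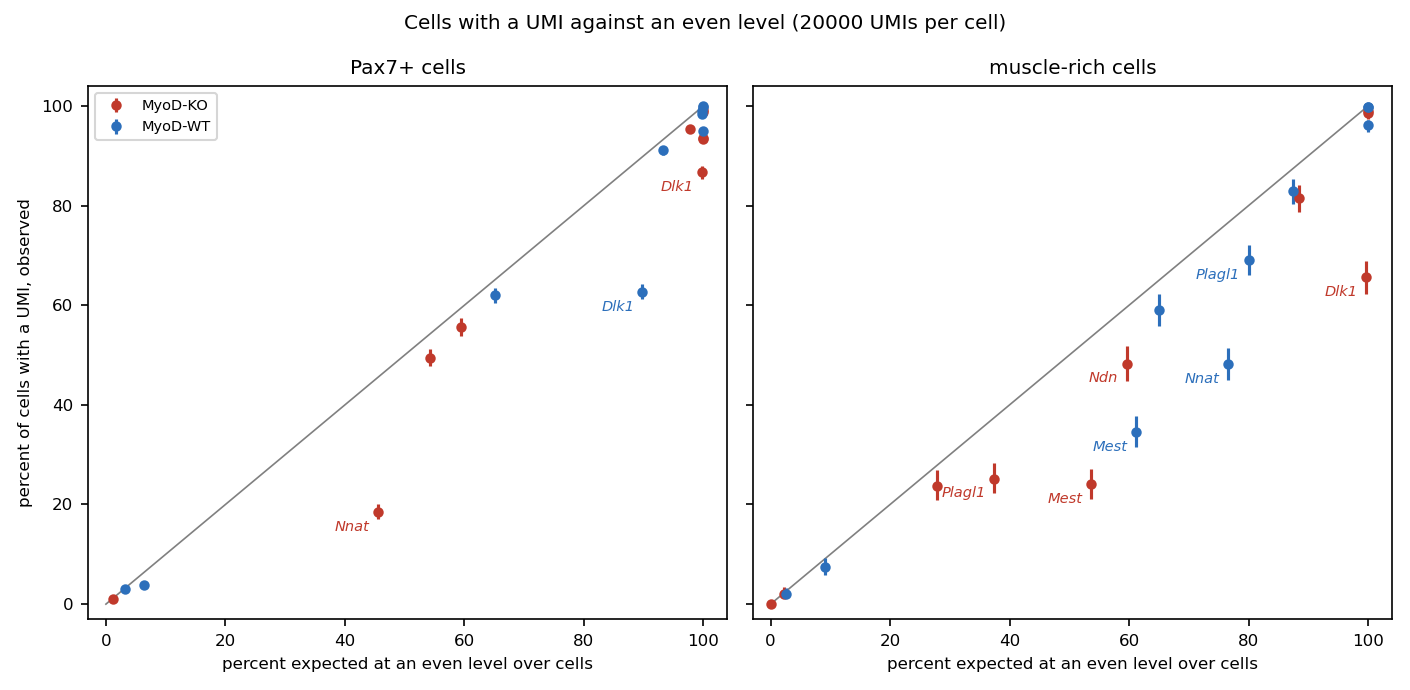
Percent of cells with a UMI (vertical axis, bars are 95% exact intervals) against the percent expected if the UMIs were spread evenly over the cells (horizontal axis), for the 10 genes in Pax7+ cells and in muscle-rich cells of MyoD-KO and MyoD-WT, after thinning to 20000 UMIs. Points on the line have the share that an even spread would give. For genes seen in nearly all or in few cells, a point near the line does not show an even spread. Mest in MyoD-KO Pax7+ cells lies near it, with a variance over the mean of 4.83 against 1.71 for genes of like level. In Pax7+ cells Nnat of MyoD-KO (18.5% against 45.5%) and Dlk1 of both libraries lie well below the line. In muscle-rich cells Mest (24.1% against 53.6% in MyoD-KO) and Nnat of MyoD-WT do so too.

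Of the transcription factors, Plagl1, a zinc-finger protein that can arrest the cell cycle, was at nearly equal levels in progenitors, with 326 CPM in MyoD-KO and 323 CPM in MyoD-WT Pax7+ cells. In Myog+ cells it was at 183 and 192 CPM, and in muscle-rich cells at 28.6 and 86.7 CPM, a ratio of 0.330 (0.310 to 0.351). It was lower in muscle-rich than in Pax7+ cells of both libraries, 11.4-fold in MyoD-KO and 3.73-fold in MyoD-WT. At 2 to 5% sarcomere UMIs it stood at 44.3 against 100.4 CPM, and at 5 to 10% at 27.4 against 58.9 CPM, so the difference was there at equal share too. A UMI was found in 25.2% of MyoD-KO muscle-rich cells, against 37.4% at an even level, and in 69.1% of MyoD-WT ones, against 80.0%. In Pax7+ cells these shares were 93.6% and 98.9%. The spread there was still uneven, with a variance over the mean of 4.13 and 2.19, against 1.48 and 1.29 for genes of like level.

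Peg3 was detected in most cells of the 3 muscle classes in both libraries. Its level was 864 CPM in Pax7+, 689 CPM in Myog+ and 485 CPM in muscle-rich cells of MyoD-KO, against 881, 839 and 699 CPM in MyoD-WT, within 2-fold in each class. At least 97.0% of cells in these 3 classes had a UMI after thinning in either library. Thinning left out 253 of the 1061 MyoD-KO and 125 of the 1077 MyoD-WT muscle-rich cells as too shallow, and without it 86.1% and 96.8% of muscle-rich cells had a UMI. The Crabp1/Dcn-positive cells of MyoD-KO were the exception, at 40.0 CPM, 21.6-fold lower than the Pax7+ cells. There a UMI was found in 28.8% of 156 cells (21.9 to 36.6%), against 53.4% at an even level and 48.8% without thinning, and 3 cells had 10 or more.

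That class was low in most members: 7 of the 10 (Dlk1, Nnat, Plagl1, Peg3, Mest, Grb10 and Sgce) were at least 2-fold lower than in MyoD-KO Pax7+ cells, where 16.9% of all genes were lower by as much. As fractions of their Pax7+ level, Peg3 stood at 0.0462, Mest at 0.0450, Dlk1 at 0.0460, Plagl1 at 0.0687, Nnat at 0.115 and Sgce at 0.483. The part of carried-over RNA and of doublets in these remaining UMIs was not tested. Grb10 was at 106 CPM and 0.232 of the Pax7+ level. Igf2r, at 134 CPM and 0.708, and Ndn kept the highest fractions. Phlda2 had 3 UMIs in the class. The same cells had 12.0 CPM of Myf5 and 13.4 CPM of Pax7, against 92.0 and 214 CPM in Pax7+ cells, the second being a gating gene. The 5 MyoD-WT cells of this gate had 606 CPM of Peg3 and are too few to compare.

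**Figure D4:**
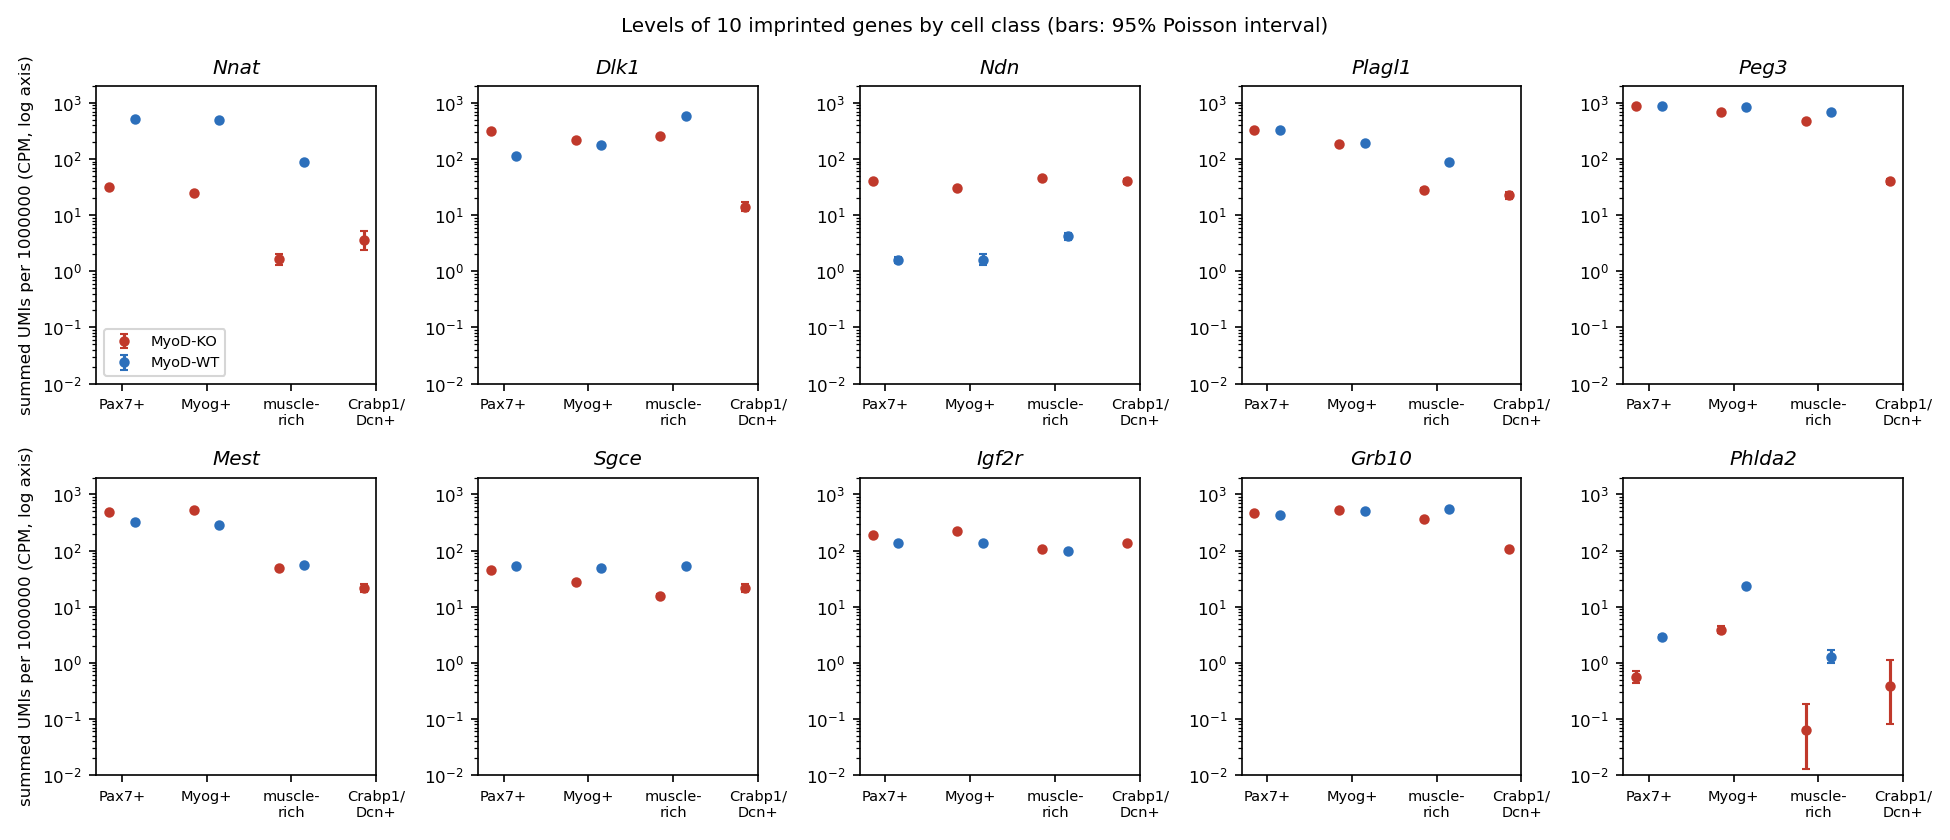
Level of each gene (vertical axis, summed UMIs per 1000000, log scale) in Pax7+, Myog+, muscle-rich and Crabp1/Dcn-positive cells (horizontal axis) of MyoD-KO and MyoD-WT; bars are 95% Poisson intervals, often smaller than the points, and the 5 MyoD-WT Crabp1/Dcn-positive cells are not drawn. Ndn is level across the MyoD-KO classes between 30.4 and 45.6, whereas Peg3, Dlk1 and Mest are 21.6-, 21.8- and 22.2-fold lower in MyoD-KO Crabp1/Dcn-positive cells than in its Pax7+ cells.

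Mest, a protein of the alpha/beta hydrolase fold, was lower in muscle-rich cells than in Pax7+ and Myog+ cells of both libraries. It was at 483 CPM in Pax7+, 517 CPM in Myog+ and 49.3 CPM in muscle-rich cells of MyoD-KO, against 324, 281 and 55.3 CPM in MyoD-WT, within 2-fold in each class. Between Pax7+ and muscle-rich cells it was 9.79-fold lower in the second in MyoD-KO and 5.86-fold lower in MyoD-WT. The ratio of the libraries in muscle-rich cells rested on the gate: its log2 value of -0.16 became 1.03 with higher gate minimums. At equal sarcomere share Mest was higher in MyoD-KO, at 96.0 against 72.9 CPM in cells with 2 to 5% and at 42.9 against 18.9 CPM in cells with 5 to 10%. In muscle-rich cells it was unevenly spread: a UMI was found in 24.1% of MyoD-KO and 34.6% of MyoD-WT cells, against 53.6% and 61.2% at an even level, and without thinning in 33.6% and 41.8%. In the same cells Mest and Plagl1 counts went together, with a Pearson r of 0.54 over 808 MyoD-KO cells and 0.41 over 952 MyoD-WT cells, as did Mest and Nnat in MyoD-WT, with 0.58. Levels of all 3 genes declined with sarcomere share within the class. The cells of a class share library and depth, and in Pax7+ cells pairs of members had r between -0.08 and 0.35 in MyoD-KO and between -0.25 and 0.19 in MyoD-WT.

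**Figure D5:**
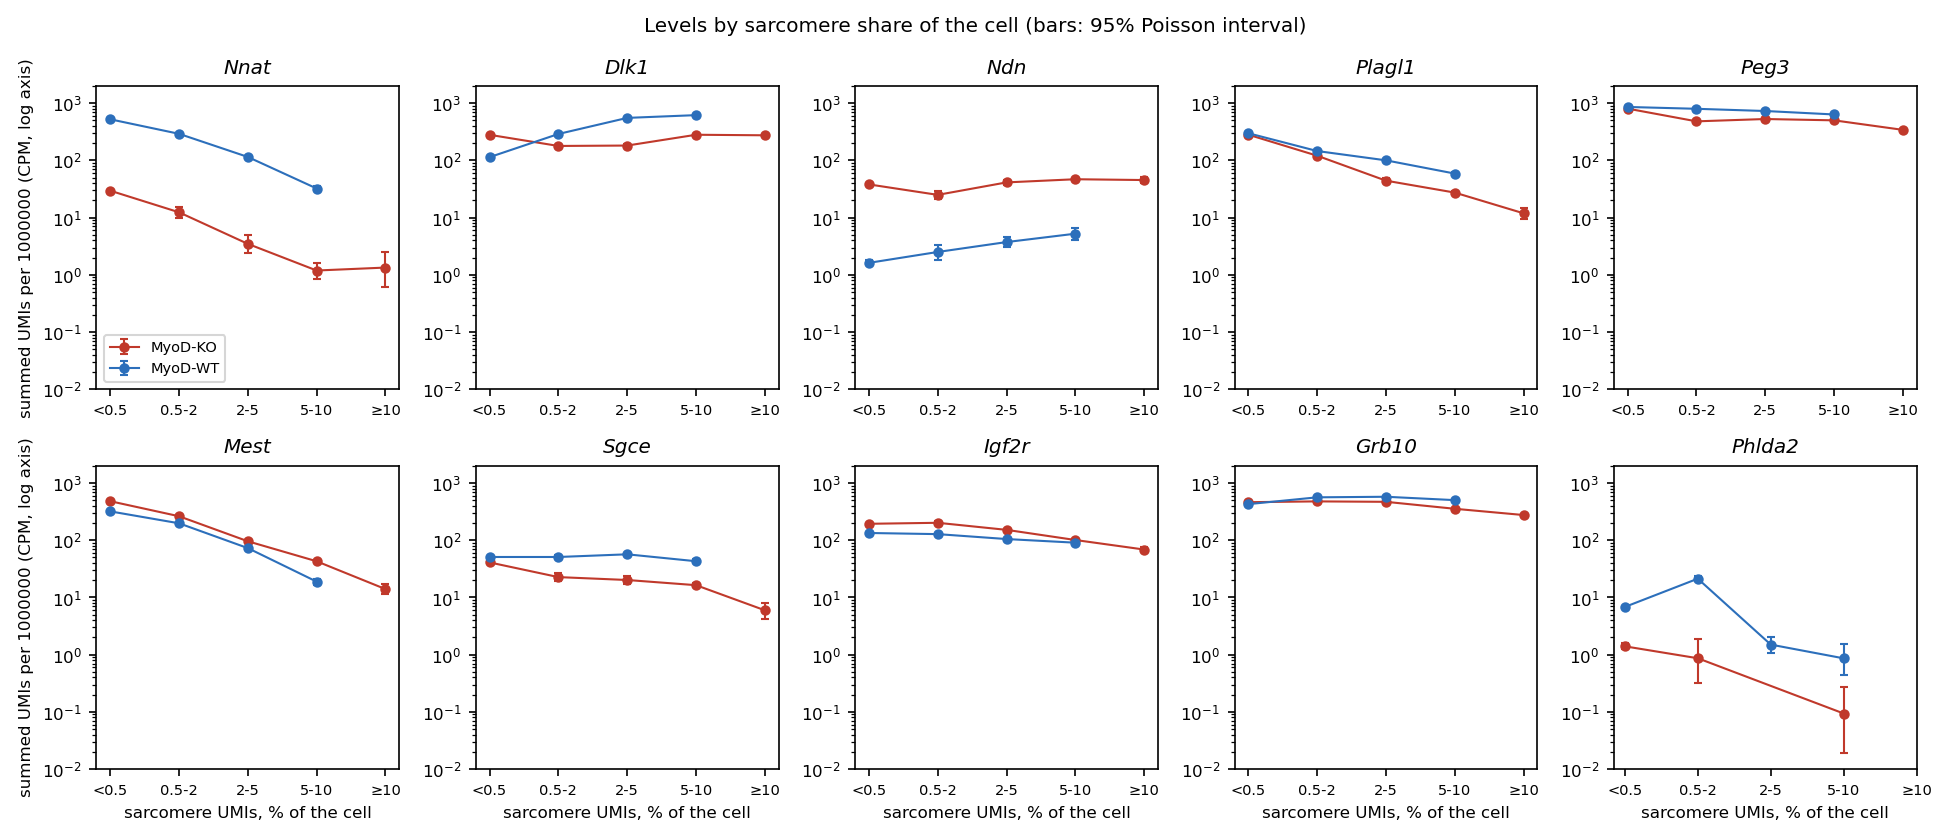
Level of each gene (vertical axis, summed UMIs per 1000000, log scale) in cells grouped by the percent of their UMIs from 12 sarcomere genes (horizontal axis) in MyoD-KO and MyoD-WT, with 95% Poisson intervals; sums of 0 and the 11 MyoD-WT cells at 10% or more are not drawn. Nnat, Mest and Plagl1 decline along the axis in both libraries, whereas Dlk1 climbs in MyoD-WT (114, 289.9, 554 and 619) and stays between 179 and 281 in MyoD-KO.

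The signalling genes of growth control were close in both libraries. Grb10, an adaptor that dampens insulin and IGF receptor signals, was at 457, 524 and 366 CPM in Pax7+, Myog+ and muscle-rich cells of MyoD-KO, against 426, 508 and 552 CPM in MyoD-WT. Its highest class was thus Myog+ in MyoD-KO and muscle-rich in MyoD-WT. Igf2r, the receptor that takes up and clears IGF2, was at 189, 224 and 107 CPM in MyoD-KO, against 136, 134 and 100.0 CPM in MyoD-WT. All of these were within 2-fold. Both genes were detected in most cells of every muscle class, with Grb10 UMIs in at least 98.5% of thinned cells and Igf2r UMIs in at least 81.6%. Without thinning the lowest shares, both in MyoD-KO muscle-rich cells, were 85.0% for Grb10 and 75.9% for Igf2r.

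Sgce, which encodes epsilon-sarcoglycan of the dystrophin complex, was at 45.0 CPM in Pax7+, 27.7 CPM in Myog+ and 15.7 CPM in muscle-rich cells of MyoD-KO, against 53.0, 48.6 and 52.2 CPM in MyoD-WT. In MyoD-WT its Pax7+ and muscle-rich intervals overlapped, so the level in CPM was nearly flat, whereas MyoD-KO muscle-rich cells were 2.86-fold below Pax7+ cells. The TMM factors of these MyoD-WT classes were 1.06 and 0.806, so with TMM scaling the muscle-rich level of Sgce was the higher of these. The MyoD-KO over MyoD-WT ratio in muscle-rich cells was 0.301 (0.277 to 0.327), and at equal sarcomere share it stood at 20.2 against 56.8 CPM and at 16.4 against 43.0 CPM. In Myog+ cells the log2 ratio of -0.81 passed 2-fold with higher gate minimums, at -1.04, and reached it with TMM scaling, at -1.0. Its UMIs were spread almost evenly over Pax7+ cells. The variance over the mean there was 1.22 in MyoD-KO and 1.16 in MyoD-WT, against 1.15 and 1.10 for genes of like level. Muscle-rich cells were less even, at 1.58 and 1.38 against 1.13 and 1.20. A UMI was found in 23.8% of MyoD-KO and 59.1% of MyoD-WT muscle-rich cells, against 27.9% and 65.0% at an even level.

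Phlda2, a small pleckstrin-homology protein that restrains placental growth, had the lowest level of the 10 over all MyoD-KO cells, at 1.09 CPM, and was at 6.90 CPM in MyoD-WT, where Ndn was lower. Its highest class was Myog+ in both libraries. There it was at 3.87 CPM in MyoD-KO (182 UMIs) and 23.5 CPM in MyoD-WT (1303 UMIs), a ratio of 0.165 (0.140 to 0.192). In Pax7+ cells it was at 0.560 and 2.85 CPM, and in muscle-rich cells at 0.0622 CPM, from 3 UMIs, and 1.29 CPM. The MyoD-WT Myog+ level was 8.24 times that of MyoD-WT Pax7+ cells, where 5.20% of genes were at least 2-fold higher in Myog+ cells. It was on in some of those cells, since 18.0% of 1266 had a UMI (15.9 to 20.2%), against 45.2% at an even level, and 86.5% of the UMIs lay in the 10% of cells with most. Without thinning 21.4% had one. In MyoD-KO Myog+ cells the share was 3.84%, against 7.86% at an even level and 6.80% without thinning, and in muscle-rich cells 0 of 808 cells had a UMI, which allows a share of up to 0.456% at the upper 95% bound.

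Some members changed with the UMIs of proliferation genes in MyoD-WT progenitors, where no position in the cell cycle was assigned. In Pax7+ cells with 0, 1 to 4 and 5 or more UMIs of the proliferation genes Mki67 and Top2a, Nnat was at 293, 421 and 523 CPM in MyoD-WT, and Phlda2 at 14.1, 5.64 and 2.12 CPM. In MyoD-KO the same steps had 20.5, 33.8 and 32.4 CPM of Nnat and 0.484, 0.863 and 0.493 CPM of Phlda2. Nnat was lower in MyoD-KO in every step, and depth was higher in the cells with more proliferation UMIs, with medians of 30403, 33001 and 44624 UMIs in MyoD-KO and 25605, 28128 and 38361 UMIs in MyoD-WT.

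Other imprinted genes and their neighbours, most in the members' domains and some in other imprinted domains, were taken from a list of 51 genes, of which 42 were in the files and 33 had a mean of at least 1 CPM. Over all kept cells 7 of the 27 past the minimum were at least 2-fold higher in MyoD-KO and 0 lower, against 13.3% and 3.40% of all genes, with a median log2 ratio of 0.07. In Pax7+ cells 7 of 28 were higher and 2 lower (either direction in 18.1% of all genes), in Myog+ cells 4 of 25 were higher and 0 lower, and in muscle-rich cells 1 of 26 was higher and 4 lower (either direction in 17.0%). Beside Ndn, Magel2 stood at 1.01 against 0.0573 CPM, under the minimum level but 17.7 times apart (10.7 to 31.4), while Snrpn, at 15.8 against 14.9 CPM, Peg12, at 17.0 against 12.8 CPM, and Ube3a, at 183 against 207 CPM, were within 2-fold. Blcap, whose gene holds Nnat within an intron, was at 15 against 23.4 CPM, so the neighbour did not share the 19.4-fold difference.

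In the domain of Phlda2 the direction differed between genes: the cyclin-dependent kinase inhibitor Cdkn1c was at 2961 CPM in MyoD-KO and 931 CPM in MyoD-WT, and Cd81 at 501 and 196 CPM. In that of Sgce, Pon3, at 11.1 against 0.412 CPM, Pon2, at 14.8 against 3.89 CPM, and Asb4, at 11.7 against 2.57 CPM, were higher, while Peg10, at 46.5 against 82.6 CPM, was within 2-fold like Sgce. Cobl, beside Grb10, at 89.3 against 37.2 CPM, and Zdbf2, of another domain, at 258 against 108 CPM, complete the 7. Calcr, the calcitonin receptor of quiescent muscle stem cells, was at 0.195 against 9.85 CPM, just under the minimum, and was lower in MyoD-KO Pax7+ cells, at 0.304 against 14.4 CPM. Rtl1, in the domain of Dlk1, followed it in muscle-rich cells, at 8.44 against 45.1 CPM (ratio 0.187, 0.168 to 0.208). Usp29 starts beside Peg3 and Copg2 overlaps Mest, so their UMIs may not be fully separate from those of the members; they were at 42.2 against 79.9 CPM and 47.2 against 69.6 CPM.

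Genes that set, keep or erase imprints were all within 2-fold or under the minimum over all kept cells. Of 12 listed, 11 had a mean of at least 1 CPM and 9 were past the minimum. Of these 9, 0 were called, against 16.7% of all genes. The median log2 ratio of the 11 was -0.34, and that of all genes past the minimum was 0.08. Dnmt1, which copies methylation at replication, was at 71.8 CPM in MyoD-KO and 89.1 CPM in MyoD-WT, Uhrf1, its partner, at 41.1 and 67.5 CPM, and Trim28, the co-repressor at imprints, at 95.8 and 117 CPM. The largest difference among those past the minimum was in Dnmt3a, a methyltransferase that adds new marks, at 26.9 and 51.9 CPM, and in Pax7+ cells it passed 2-fold, at 31.8 and 65.9 CPM. Uhrf1 passed 2-fold in muscle-rich cells, at 4.35 CPM in MyoD-KO and 11.1 CPM in MyoD-WT.

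Genes with the most similar pattern were ranked by Pearson r of log2(CPM + 1) over the 7 library-and-class sums of at least 50 cells, among 9879 genes. The closest was Mynn for Nnat (r = 0.996), Tmem223 for Ndn (0.995), Cspg4b for Dlk1 (0.987), Dtl for Plagl1 (0.994), Mamdc2 for Peg3 (0.992), Tbc1d31 for Mest (0.997), Tmem64 for Grb10 (0.989), Tdp1 for Sgce (0.976) and Ythdc2 for Phlda2 (0.959). For Igf2r the closest named gene was Tsn (0.979). With 7 sums and so many genes, values this high are found for every member, and r does not measure size: Mynn was at 13.3 CPM in MyoD-KO and 18.4 CPM in MyoD-WT Pax7+ cells. Lgals3, galectin-3, was the third for Ndn (0.993), at 403 CPM in MyoD-KO and 2.33 CPM in MyoD-WT Pax7+ cells.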

How the data were processed

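UMI counts of 2 single-cell 3' libraries (10x Chromium v3.1 kit, per the labels) were used as deposited, raw, per gene and cell barcode. Cell Ranger 7.2.0 made them, per the file headers, with cell calling already applied. The submitters' processing notes also list GRCm39 and Seurat with no role, and strand use in counting is not given in the sources used here. The 10 members and all lists and gates were chosen with earlier results of these data known. Genes named are the members, listed domain and imprint-keeping genes with at least 1 CPM, and the genes most like each member; others were named after their values were seen. Meg3, Rian, Mirg, Zfp264, Airn, Kcnq1ot1, H19, Nespas and Peg13 were listed but not analysed here.

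Kept cells had at least 1000 genes and at most 15% mitochondrial UMIs; 1888 MyoD-KO and 873 MyoD-WT barcodes of 7670 and 8191 failed. Scrublet (scanpy 1.11.5) removed 144 MyoD-KO cells (2.49%) but only 2 MyoD-WT cells (0.0273%), so doublets may remain in that library; the labels do not mention doublet removal. The libraries share 14 barcodes, 9 among kept cells. UMIs were summed per library and class and divided by the summed total (CPM), with exact Poisson intervals. Ratios have the exact interval that takes the summed count as given, and shares the Clopper-Pearson interval, all at 95% and for counting error only. A gene was called when at least 2-fold apart with at least 10 CPM in the higher sum. A share of cells was set beside the Poisson share for the same mean, 1 - exp(-mean UMIs), a formula and not a test. TMM factors came from edgeR 4.0.16. The calls and shares were tested on simulated data.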

Additional observations from a re-analysis of the deposited data

Results flagged for a closer look

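For 3 genes the change from Pax7+ cells to a later class pointed one way in MyoD-KO and the other way in MyoD-WT, with 95% counting intervals that leave out no change in both libraries; the difference between the libraries was not tested, as each genotype has 1. The log2 ratio of Dlk1 in Myog+ over Pax7+ cells was -0.49 in MyoD-KO and 0.70 in MyoD-WT, and in muscle-rich over Pax7+ cells -0.25 in MyoD-KO and 2.36 in MyoD-WT. For Grb10 the muscle-rich over Pax7+ value was -0.32 in MyoD-KO and 0.37 in MyoD-WT. For Mest the Myog+ over Pax7+ value was 0.10 in MyoD-KO and -0.21 in MyoD-WT. Of these, only Dlk1 in MyoD-WT muscle-rich cells was at least 2-fold away from Pax7+ cells.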

How the results depend on the processing

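No paired analysis was possible because each genotype has 1 library. Nnat and Ndn were the 2 members past 2-fold over all kept cells under every scaling, cell filter, doublet and class-weight alternative run, with log2 ratios from -4.49 to -4.15 for Nnat and from 3.96 to 4.27 for Ndn. Under TMM the median log2 ratio over genes was -0.12 rather than 0.08. It moved the genes lower in MyoD-KO from 299 to 469 and the higher ones from 1172 to 925, so that the higher share of called genes was 66.4% rather than 79.7%; with median-of-ratios scaling the median was -0.15 and that share 63.9%. With a minimum of 1 CPM 2456 genes were higher and 567 lower, and with 3 UMIs only 4789 and 1475. TMM also left 6 of 10 members with their highest MyoD-WT class, and it turned small differences of Grb10 in Pax7+ (0.10 to -0.02) and Igf2r in muscle-rich cells (0.10 to -0.05); the cause was not tested. Dlk1 over all kept cells, 0.43, was -0.13 with equal class weights, since its classes differ in direction. Members at least 10 points under the even-level share in Pax7+ cells, counted per library, were 3 at 20000 UMIs, 5 at 10000 and 5 at 5000, where Nnat of MyoD-KO (9.14% against 14.1%) was not among them. Depth limits shares of low members: at 20000 UMIs a gene at a few CPM is seen in few cells however it is spread.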
